A study of Mus musculus with 3 samples.

Results

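The 6 genes described here encode the mouse receptors for immunoglobulin G, their shared signalling chain and the neonatal Fc receptor: Fcgr1, Fcgr2b, Fcgr3, Fcgr4, Fcer1g and Fcgrt. They were picked by symbol out of 55536 annotated genes in the deposited tables, and each symbol matched 1 gene identifier. RNA of the chromatin fraction had been sequenced after depletion of ribosomal RNA, from mouse bone-marrow-derived macrophages (BMDM, primary macrophages grown from marrow) of strain C57BL/6J. All 3 libraries belonged to 1 condition: cells had been given 100 ng/ml Lipid A, the part of bacterial lipopolysaccharide that TLR4 recognises, for 12 h, then washed and kept without it for 12 h, then given 100 ng/ml Lipid A again for 10 min. The labels call the libraries biological replicates with separate biosamples and 1 donor identifier, and give neither age nor sex. No untreated library was analysed here, so the comparisons lie between genes within a library and between replicates.

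Fc gamma receptors bind the constant part of immunoglobulin G and let macrophages take up antibody-coated particles. The activating receptors encoded by Fcgr1, Fcgr3 and Fcgr4 signal through a separate chain, the product of Fcer1g, whose ITAM motif is phosphorylated by Src family kinases and recruits the kinase Syk. The receptor encoded by Fcgr2b carries an inhibitory motif in its own tail and recruits the lipid phosphatase SHIP1. The product of Fcgrt pairs with beta-2 microglobulin and protects immunoglobulin G from breakdown inside cells.

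Library depth, counted in expected counts on genes (the deposited estimates of reads per gene), was between 13538605 and 19949204. At this depth a count of 0 allows up to 0.150 to 0.222 CPM (counts scaled to library size), by the limit of 3 counts. Of 12 macrophage markers, 11 were detected, which here means at least 1 TPM (the deposited abundance, scaled by transcript length and library) in every library, with Adgre1 at 303 ± 76.5 TPM, Lyz2 at 143 ± 39.0, Csf1r at 139 ± 11.5 and Msr1 at 124 ± 23.3 (SD, n = 3). The haemoglobin scavenger receptor gene Cd163 was the lowest of the list at 0.117 ± 0.0404 TPM. Macrophage markers summed to between 879 and 1157 TPM per library.

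Markers of other blood cell types were low in the alignment-based tables and less so in the read-based ones. Those of B cells summed to 2.01, 2.53 and 1.32 TPM in replicates 1, 2 and 3 with 1 of 8 detected (Cr2), those of neutrophils to 0.580, 0.720 and 0.640 TPM with 0 of 8 detected, and those of NK cells to 0.210, 0.0300 and 0 TPM with 0 of 7 detected. Mast cell markers summed to 3.33, 1.71 and 1.81 TPM with 1 of 8 detected, the histamine-forming enzyme gene Hdc. Dendritic cell markers summed to 2.32, 2.70 and 1.90 TPM with 1 of 7 detected, Zbtb46. Platelet markers summed to 5.61, 8.01 and 4.92 TPM with 2 of 6 detected, and T cell markers to 0.05, 0.310 and 0.33 TPM with 0 of 7 detected. In the read-based tables the mean sums were higher, at 18.4 TPM for T cell, 10.9 for B cell, 9.87 for platelet, 6.76 for dendritic cell, 4.60 for NK cell, 4.07 for mast cell and 3.93 for neutrophil markers, against 1298 for macrophage markers. Most of the T cell sum there came from Cd3d, a chain of the T cell receptor complex, at 13.7 TPM on average, against 0.0133 TPM in the alignment-based tables. Most of the B cell sum came from Cr2 at 6.94 TPM and Ebf1 at 2.51, of which Ebf1 was at 0 in all 3 alignment-based tables. Of the read-based markers, 1 of 8 neutrophil, 1 of 7 NK cell and 1 of 8 mast cell genes were detected. Also detected there were 2 of 8 B cell, 2 of 7 dendritic cell, 3 of 6 platelet and 2 of 7 T cell genes. S100a9, Elane, Ncr1 and Tpsb2 were at 0 in both sets, but some other markers of their lists were not. In the read-based tables Mpo (neutrophil) averaged 1.90 TPM, Klre1 (NK cell) 3.28 and Hdc (mast cell) 2.87.

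Of the 6 genes, 4 lay within 275749 bp of mm10 chromosome 1: Fcgr2b (ENSMUSG00000026656.15, 170958617 to 170976547, minus strand), Fcgr4 (ENSMUSG00000059089.4, 171018920 to 171029761, plus strand), Fcgr3 (ENSMUSG00000059498.13, 171051174 to 171064935, minus strand) and Fcer1g (ENSMUSG00000058715.11, 171229572 to 171234365, minus strand). Fcgr1 (ENSMUSG00000015947.10) lay on chromosome 3 from 96282909 to 96293969 and Fcgrt (ENSMUSG00000003420.8) on chromosome 7 from 45092990 to 45103851, both on the minus strand. Fcgr2b, Fcgr4 and Fcgr3 followed each other with no other protein-coding gene between them, at distances of 42373 and 21413 bp. The genes on either side of this trio were near or below 1 TPM, with Fcrla at 0.0933 ± 0.107 TPM and Cfap126 at 1.13 ± 0.0306 TPM (SD, n = 3). On the lower side of Fcer1g, 3193 bp away, the apolipoprotein gene Apoa2 was at 0.987 ± 0.506 TPM. Fcgr1 stood between the histone gene Hist2h2bb at 7.29 ± 2.30 TPM and BC107364, listed at 0. On the lower side of Fcgrt, 769 bp away, Rcn3 was at 0.377 ± 0.325 TPM.

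How reads were counted by strand is not given in the sources used here, so reads of a gene and of an overlapping antisense gene may be mixed. Antisense genes overlap Fcgr2b (Gm38204) and Fcgrt (Gm45669), and they held at most 3 and 1 expected counts in a library. Fcgr2b and Fcgr3 are close paralogues, with 83.9% identical positions in the alignment of their coding sequences, against 58.6% to 63.5% for the other 5 pairs of Fcgr genes. The longest stretch in which their transcripts are identical is a coding run of 129 nt, shown because reads that fall inside it cannot be assigned by sequence alone. In Fcgr2b it joins exons between chr1:170966674-170968081 and in Fcgr3 between chr1:171054167-171057792 (mm10, minus strand, written 5′ to 3′ from the GENCODE M21 transcripts).

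Fcgr2b and Fcgr3 shared run: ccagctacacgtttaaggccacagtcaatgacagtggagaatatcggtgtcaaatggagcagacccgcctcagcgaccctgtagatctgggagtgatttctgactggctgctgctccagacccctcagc

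Windows of 50 nt that both genes hold made up 2.92% of the windows of Fcgr2b and 9.58% of those of Fcgr3. No other pair among the 6 genes shared a 50-nt window. The level of Fcgr3, the far lower gene of the pair, is therefore the more uncertain.

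The Fcgr2b transcripts on which the results below turn differ at an exon of 141 nt in the coding region (chr1:170963325-170963465, mm10, minus strand). The coding transcript Fcgr2b-201 holds it and the coding transcript Fcgr2b-202 skips it, and its length leaves the reading frame intact. As background, the mouse gene makes a B1 form, typical of B cells, with an insert in the cytoplasmic tail that hinders uptake of the receptor, and a B2 form, typical of macrophages, without that insert. The exon and the joints between exon and intron in 3 other Fcgr2b transcripts are written 5′ to 3′ from the GENCODE M21 transcripts. Capitals mark the GT at the start or the AG at the end of the intron that stays in the transcript.

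Fcgr2b exon of 141 nt: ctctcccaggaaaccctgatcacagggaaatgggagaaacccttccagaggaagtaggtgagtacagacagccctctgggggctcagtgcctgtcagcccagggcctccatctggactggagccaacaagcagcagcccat

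Fcgr2b-205 joint (chr1:170965682-170965721): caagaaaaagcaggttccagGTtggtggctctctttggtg

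Fcgr2b-206 joint (chr1:170961214-170961253): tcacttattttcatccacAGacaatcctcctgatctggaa

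Fcgr2b-207 joint (chr1:170969454-170969493): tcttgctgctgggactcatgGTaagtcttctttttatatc

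Fcgr2b-205 runs from an exon through a GT into the intron just before the 141-nt exon and covers 1369 of its 2236 nt. Fcgr2b-206 begins inside the intron just after that exon, covers 397 of its 2091 nt and goes on through an AG into the next exon. Fcgr2b-207 ends 214 nt into an intron near the start of the gene. Reads of unspliced precursor RNA from these places can be credited, among the transcripts of this gene, only to these, since no coding transcript covers them.

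All 6 genes were detected, against 45.6% of the 22028 annotated protein-coding genes. The inhibitory receptor gene Fcgr2b was the highest, at rank 139 by mean TPM among protein-coding genes. It stood at 271, 272 and 157 TPM in replicates 1, 2 and 3, on 4802, 5536 and 3114 expected counts (233 ± 65.9 TPM, SD, n = 3). Replicates 1 and 2 were nearly level and replicate 3 was lower.

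Fcer1g, the signalling chain, came next at rank 436, with 128, 124 and 81.9 TPM in replicates 1, 2 and 3, on 724, 778 and 479 expected counts (111 ± 25.5 TPM). Fcgr1, the high-affinity activating receptor, followed at rank 1301, with 66, 53.3 and 37.7 TPM on 2011, 2005 and 1377 expected counts (52.3 ± 14.2 TPM). As for Fcgr2b, replicate 3 was the lowest of both genes. Fcgr1 had more counts than Fcer1g and a lower TPM because TPM is scaled by transcript length.

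The other activating receptors were far lower. Fcgr4, which binds the mouse IgG2a and IgG2b subclasses, had 10.9, 7.72 and 5.17 TPM in replicates 1, 2 and 3, on 153, 131 and 86 expected counts (7.94 ± 2.89 TPM). Fcgr3, the low-affinity activating receptor, had 8.51, 7.84 and 6.99 TPM on 124, 136 and 123 counts (7.78 ± 0.762 TPM). Fcgrt had 4.58, 8.25 and 6.61 TPM on 58, 138 and 110 counts (6.48 ± 1.84 TPM), and it was the only one of the 6 with its lowest level in replicate 1. These 3 genes ranked between 6336 and 6886 of 22028, and their ranges over the libraries overlapped.

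**Figure D1:**
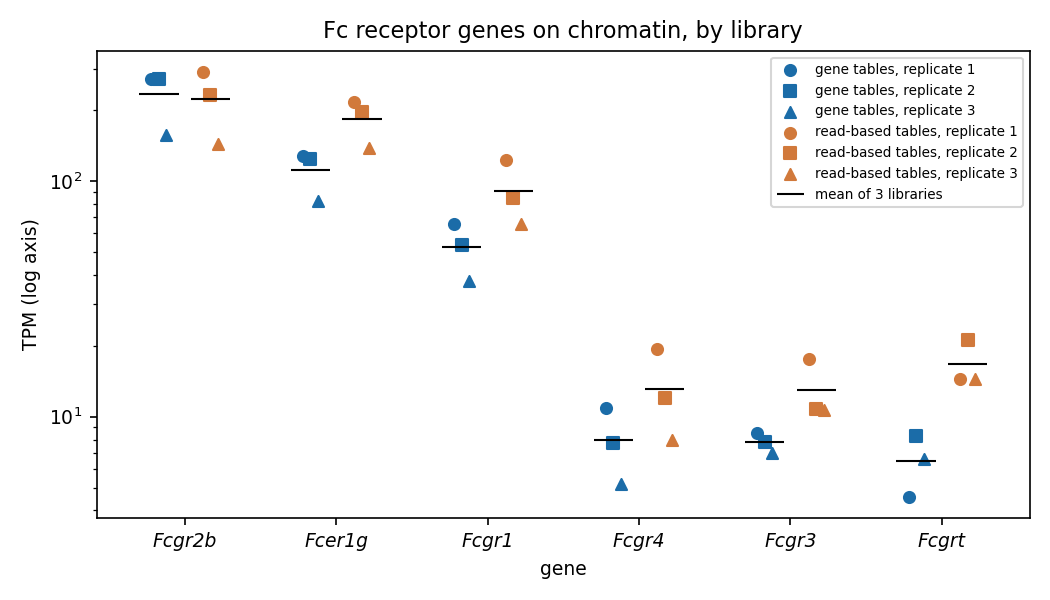
TPM (log axis) of the 6 Fc receptor genes in each of the 3 libraries, from the alignment-based gene tables (blue) and from the read-based transcript tables summed per gene (orange), with bars at the mean. Fcgr2b, Fcer1g and Fcgr1 stand above the other 3 genes in every library of both sets, and Fcgr4, Fcgr3 and Fcgrt overlap.

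Each of the other 5 genes was below Fcgr2b in 3 of 3 libraries. On the log2(TPM + 0.1) scale the difference from Fcgr2b was -1.05 ± 0.10 for Fcer1g, -2.15 ± 0.17 for Fcgr1, -4.88 ± 0.25 for Fcgr4, -4.85 ± 0.33 for Fcgr3 and -5.14 ± 0.66 for Fcgrt (mean ± SD of 3 libraries). An exact two-sided sign-flip test gave p = 0.25 for each, also after adjustment over the 5 differences, and 0.25 is the smallest p that 3 libraries allow. Between neighbours in the order, Fcgr4 minus Fcgr3 (-0.03 ± 0.39) and Fcgr3 minus Fcgrt (0.30 ± 0.51) were smaller than their own SD and changed sign between libraries. Fcer1g minus Fcgr1 (1.10 ± 0.14) and Fcgr1 minus Fcgr4 (2.73 ± 0.13) had the same sign in 3 of 3 libraries. Without length scaling, in CPM, Fcer1g minus Fcgr1 turned to -1.45 ± 0.08.

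Among the 4 Fcgr genes, Fcgr2b held 76.0%, 79.8% and 76.0% of their summed TPM in replicates 1, 2 and 3 (77.3% ± 2.20, SD, n = 3). Fcgr1 held 17.4% ± 1.57, Fcgr3 2.69% ± 0.596 and Fcgr4 2.61% ± 0.413. The TPM of the inhibitory receptor gene was thus 3.17, 3.95 and 3.16 times that of the activating receptor genes Fcgr1, Fcgr3 and Fcgr4 summed. The signalling chain Fcer1g stood at 1.49, 1.81 and 1.64 times the same sum, but in expected counts, which are not scaled by length, at 0.316, 0.342 and 0.302 times. These ratios varied less between libraries than the levels did, and in the read-based TPM that of Fcgr2b was lower, at 1.90 ± 0.237. Over coding transcripts only, taken up below, the Fcgr2b ratio was 0.631, 0.630 and 0.528 in replicates 1, 2 and 3, so the order was reversed.

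The split of TPM between annotated transcript classes differed between members, and so did the amount of intron that their transcripts cover. Intronic reads outside those transcripts are not counted, so the shares do not compare the form of the RNA on equal terms. Of Fcgr2b TPM, transcripts annotated as retaining an intron held 52.5%, 50.5% and 49.6% in replicates 1, 2 and 3 (50.9% ± 1.47, SD, n = 3). Fcgr2b-206, a processed transcript with no coding part, held 33.8% ± 3.18, so its 4 coding transcripts together held 15.3% ± 1.77. Over all protein-coding genes the coding transcripts held 49.7% ± 0.769, retained-intron transcripts 37.1% ± 0.559 and processed transcripts 8.92% ± 0.348. The coding share of Fcgr2b was 14.8% ± 1.47 of read-based TPM, but 24.6% ± 0.802 of expected counts and 29.4% ± 2.46 of read-based estimated counts.

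By transcript, Fcgr2b-205 had 105, 93.2 and 51.7 TPM in replicates 1, 2 and 3, on 2859, 3149 and 1703 expected counts. Fcgr2b-206 had 81.8, 96.0 and 56.6 TPM on 652, 891 and 519 counts, and Fcgr2b-207 had 36.9, 44.1 and 26.4 TPM on 128, 159 and 96 counts. Fcgr2b-205 alone held 57% ± 2.42 of the expected counts of the gene. Of its 2250 nt, 60.8% lie outside every exon of the coding transcripts, against 49.5% for Fcgr2b-206 and 46.3% for Fcgr2b-207. These 3 transcripts thus took most of the signal of the gene in every library.

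The coding transcript with the 141-nt exon, Fcgr2b-201, had 13.7, 15.5 and 10.0 TPM in replicates 1, 2 and 3, against 33.4, 22.9 and 12.5 TPM for Fcgr2b-202, which lacks it. Together with the rare Fcgr2b-204, transcripts that hold the exon made up 29.0%, 40.3% and 44.1% of the TPM of coding Fcgr2b transcripts. In the read-based tables the same share was 43.5%, 68.9% and 69.6%, so the order of both forms turned in replicates 2 and 3. Fcgr2b-201 also ends 1941 bp further downstream than Fcgr2b-202, so reads in that end part are credited to the form with the exon whether or not they bear on it. The share of the form with the exon is therefore not settled by these tables. B cells, which typically make it, left 2.01, 2.53 and 1.32 TPM in the sum of their 8 markers in the alignment-based tables and 12.9, 9.44 and 10.4 TPM in the read-based ones, and their part in the result was not tested.

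**Figure D2:**
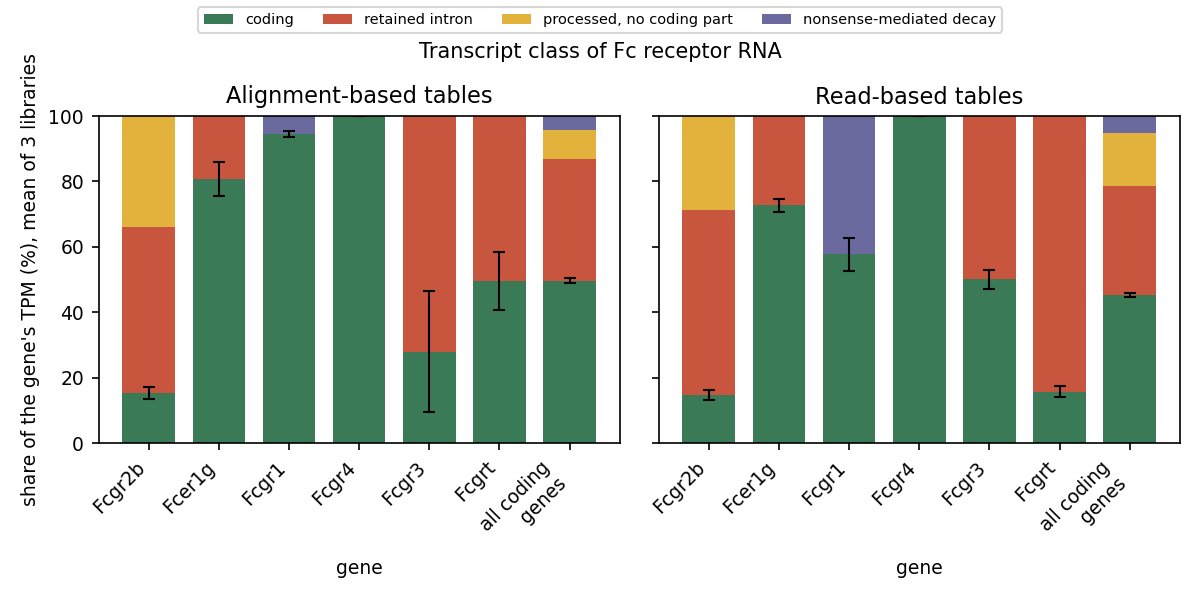
Share of each gene's TPM (%) by annotated transcript class, mean of 3 libraries, in the alignment-based tables (left) and the read-based tables (right), with the sum over all protein-coding genes at the far right of each panel. Error bars are the SD of the coding share. Fcgr2b had a coding share of 15.3% and 14.8% in these 2 sets, while the class shares of Fcgr1, Fcgr3 and Fcgrt moved between them.

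Among the activating receptors, Fcgr4 has 1 annotated transcript, which is coding, and Fcgr1 has none that retains an intron. Intronic reads of these 2 genes have no transcript to be credited to, so their TPM and that of Fcgr2b do not count the same kinds of RNA. Fcgr1-202, annotated for nonsense-mediated decay, held 5.36% ± 0.917 of Fcgr1 TPM, but 42.3% ± 4.98 in the read-based tables. For Fcgr3 the retained-intron transcript Fcgr3-203 held 93.1%, 57.7% and 65.4% in replicates 1, 2 and 3, and 49.9% ± 2.94 in the read-based tables. That transcript shares all but 107 of its 1298 nt with coding exons, and the split rested on 115, 80 and 79 expected counts against 5, 54 and 44 for the coding Fcgr3-201. Its joint with the intron is shown with that of Fcer1g-202 (capitals as above).

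Fcgr3-203 joint (chr1:171057929-171057968): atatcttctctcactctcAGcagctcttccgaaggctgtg

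Fcer1g-202 joint (chr1:171231157-171231196): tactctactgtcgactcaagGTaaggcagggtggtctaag

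Fcer1g had most of its TPM in coding transcripts, with 85.0%, 82.5% and 75.0% in replicates 1, 2 and 3 (80.8% ± 5.22, SD, n = 3). Its transcripts cover only 126 nt of intron, so intronic reads elsewhere in the gene have no transcript of it to be credited to. Its retained-intron transcript Fcer1g-202, which ends 126 nt into an intron, stood at 19.1, 21.8 and 20.5 TPM, on only 41, 45 and 43 expected counts. The coding Fcer1g-201 stood at 98.6, 88.2 and 49.4 TPM. In the read-based tables Fcer1g-202 was at 55.2, 53.3 and 40.4 TPM and Fcer1g-201 at 93.4, 70.2 and 41.0, so both were lowest in replicate 3 there. For Fcgrt, retained-intron transcripts held 50.4% ± 8.79, or 84.3% ± 1.66 in the read-based tables. Fcgrt-206 accounted for much of that gap, with 0.470, 1.37 and 0 TPM in replicates 1, 2 and 3 of the alignment-based tables and 10.3, 15.2 and 9.96 TPM in the read-based ones. Beside the 6342 detected protein-coding genes that have such a transcript, whose median retained-intron share was 45.6%, Fcgr2b was above 59.4% of the genes, Fcgr3 above 89.1%, Fcgrt above 57.6% and Fcer1g above 11.9%.

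The order of the genes depended on which transcripts were summed. With coding transcripts only, an alternative chosen after seeing the data, Fcer1g was at 108, 103 and 61.4 TPM in replicates 1, 2 and 3, Fcgr1 at 63.1, 50.2 and 35.4 TPM, and Fcgr2b at 47.1, 38.6 and 22.7 TPM. Fcgr2b was thus below both genes in every library, and the difference from it turned to 1.35 ± 0.13 for Fcer1g and to 0.48 ± 0.14 for Fcgr1 (log2, mean ± SD, n = 3). Fcgr2b then stood at 0.596 ± 0.0591 times the summed activating receptors, and at 0.455 ± 0.0285 times in the read-based coding TPM. The coding level of Fcgr3 was 0.590, 3.32 and 2.42 TPM, against 8.49, 5.75 and 5.20 TPM in the read-based tables. Fcgr4 was unaffected, having only a coding transcript.

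**Figure D3:**
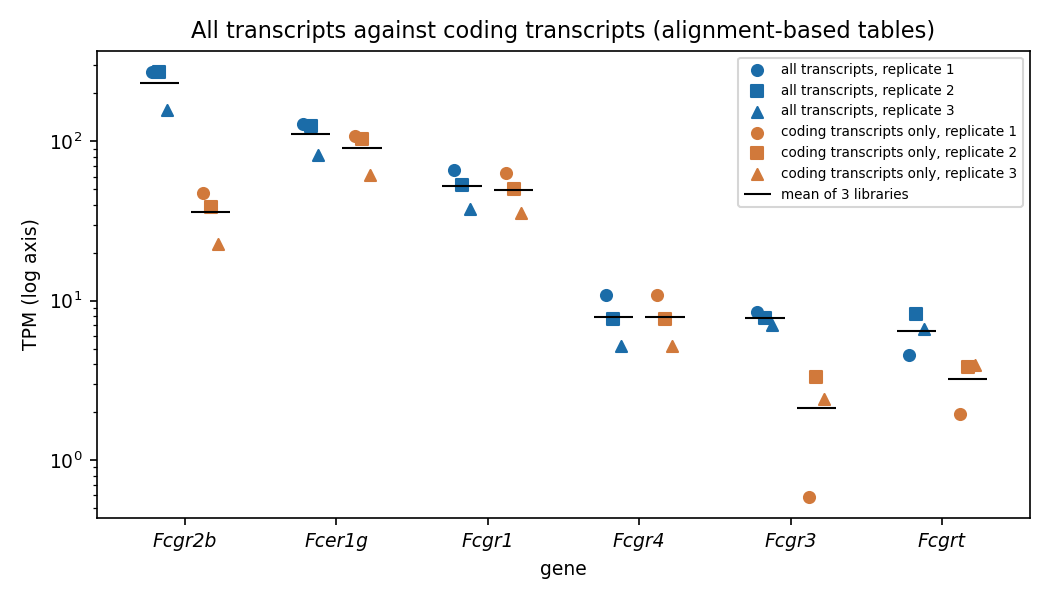
TPM (log axis) of the 6 genes in each of the 3 libraries of the alignment-based tables, summed over all transcripts (blue) and over coding transcripts only (orange), with bars at the mean. Fcgr2b averaged 233 TPM over all transcripts and 36.1 TPM over coding ones, which puts it below Fcer1g (90.8 TPM) and Fcgr1 (49.6 TPM).

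The level of Fcgrt was the least certain of the 6. The authors' deposited table gives an interval for its TPM from 3.63 to 148 in replicate 1, from 6.82 to 167 in replicate 2 and from 5.50 to 162 in replicate 3. For the other 5 genes the upper bound in the authors' deposited table was between 1.08 and 1.52 times the lower bound. Fcgrt-202, an annotated transcript of 127 nt with no counts, had an effective length of 1.46 nt in replicate 1, and its part in the wide intervals was not tested. The point value of Fcgr2b in the authors' deposited table lay above the table's own interval in all 3 libraries, for example 271 TPM beside 240 to 260 TPM in replicate 1. In replicate 1 only, Fcgr1 (66 TPM beside 57.6 to 65.6) and Fcer1g (128 TPM beside 109 to 127) also lay above theirs. Beta-2 microglobulin, the partner chain of Fcgrt, had 99.3, 98.7 and 56.4 TPM for its gene B2m, or 21.7, 12.0 and 8.54 times the level of Fcgrt.

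Variation between libraries was tested for all 14789 genes with enough counts, by the goodness of fit of each gene to the negative binomial trend of edgeR with Benjamini-Hochberg adjustment. None of the 6 genes was called at an adjusted p below 0.05, where 1.12% of the genes tested (166) were. At an unadjusted p below 0.05 there were 4 of the 6, against 899 genes tested (6.08%). Without replicate 1 there were 2 of the 6 (Fcgr2b and Fcer1g), without replicate 2 again 4, and without replicate 3 there were 0. On simulated counts of this comparison the test recovered 22.1% of genes changed 2-fold in 1 library and 93.9% of those changed 4-fold, so 2-fold changes are mostly missed.

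Fcgr2b had 8.39, 8.14 and 7.49 log2 CPM in replicates 1, 2 and 3 (SD 0.46, adjusted p = 0.431 by edgeR). Fcer1g had 5.66, 5.31 and 4.79 (SD 0.44, adjusted p = 0.665), Fcgr1 had 7.13, 6.68 and 6.31 (SD 0.41, adjusted p = 0.647) and Fcgr4 had 3.43, 2.76 and 2.34 (SD 0.55, adjusted p = 0.628). These 4 genes were each highest in replicate 1 and lowest in replicate 3, by 0.90, 0.87, 0.82 and 1.09 on the log2 scale. Of all genes tested, 20.6% had replicates in this order. Fcgr3 (SD 0.17) was also highest in replicate 1, and Fcgrt (SD 0.41) was lowest there, both with an adjusted p of 1.00 by edgeR. The median SD over protein-coding genes tested was 0.18. Per the labels, library preparation started from 1 µg of RNA in replicate 1, 250 ng in replicate 2 and 500 ng in replicate 3, so input and replicate cannot be told apart. Fewer cells that express a gene and less RNA per cell cannot be told apart in these libraries either.

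**Figure D4:**
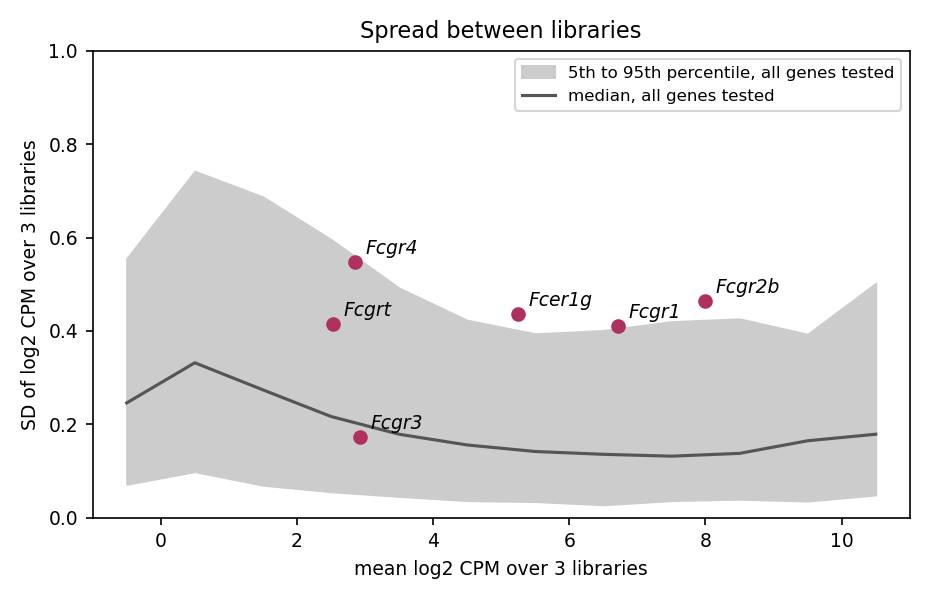
SD of log2 CPM over the 3 libraries against mean log2 CPM for the 6 genes (points), with the median (line) and the 5th to 95th percentile (band) of all 14789 genes tested, in bins of 1 log2 unit. Fcgr2b, Fcer1g and Fcgr1 lie just above the upper edge of the band, and Fcgr4 lies just below it. Fcgrt lies between the median and the upper edge, and Fcgr3 lies near the median.

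Beside the Fc gamma receptors, most other Fc receptor genes were low. Of 13, 3 were detected: Trim21, the cytosolic antibody receptor, at 67.8 ± 17.6 TPM (SD, n = 3), Fcrl5 at 2.20 ± 0.324 and Fcrl1 at 1.90 ± 0.485. Fcrl6, at 1.82 ± 1.01 TPM, and Fcrls, at 1.42 ± 0.680 TPM and named after its values were seen, were under 1 TPM in replicate 3 only, so that 5 of the 13 were detected without replicate 3. The polymeric immunoglobulin receptor gene Pigr was listed at 0. Of 4 adaptor genes with ITAM or related motifs, Fcer1g was the highest, Tyrobp (DAP12) was at 25.2 ± 7.13 TPM, Hcst (DAP10) at 2.85 ± 0.691 and Cd247, the zeta chain, at 0.403 ± 0.0473. Fcer1g was thus the leading adaptor in every library, at 128, 124 and 81.9 TPM, against 24.4, 32.7 and 18.5 TPM for Tyrobp.

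Other receptors that signal through Fcer1g were detected in 4 of 9 cases. The C-type lectin gene Clec4e (Mincle) was at 40.5 ± 10.4 TPM, Clec4d at 35.6 ± 9.12, the paired receptor gene Pira2 at 19.2 ± 3.30 and Clec4n (Dectin-2) at 4.60 ± 1.42, while Ncr1 was listed at 0. Clec4d was highest in replicate 3, with 29.8, 30.9 and 46.1 TPM in replicates 1, 2 and 3, where Fcer1g itself was lowest. Fcgr1 was thus above each of these co-users of the chain by mean TPM, though Clec4d was above it in replicate 3. In expected counts, which are not scaled by length, Clec4e was above Fcgr1 in every library. Clec4e had 2605, 2259 and 2092 counts in replicates 1, 2 and 3, and Fcgr1 had 2011, 2005 and 1377.

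Chromatin RNA of the downstream genes was high by TPM over all annotated transcripts. Their levels over coding transcripts only are not given here. Of 27 proximal activation genes 25 were detected, with the protein kinase C gene Prkcd at 349 ± 50.4 TPM, the adaptor Lat2 at 269 ± 15.5, Syk at 252 ± 37.5 and the phosphoinositide 3-kinase adaptor Pik3ap1 at 245 ± 37.5. The Src family kinase gene Fgr was the lowest at 0.553 ± 0.131 TPM. All 14 inhibitory signalling genes were detected, led by Inpp5d, which encodes SHIP1, at 184 ± 20.3 TPM, the phosphatase gene Ptpn6 (SHP-1) at 112 ± 25.1, Csk at 90.3 ± 17.9 and Inppl1 at 77.9 ± 6.81, with Ptpn11 lowest at 6.44 ± 0.584. All 16 genes of phagocytic actin remodelling were detected, from Dock2 at 318 ± 31.2 TPM, Nckap1l at 229 ± 20.5, Arpc1b at 157 ± 26.1 and Elmo1 at 88.9 ± 11.0 down to Crkl at 7.73 ± 0.939.

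Over all annotated transcripts, the median level on the log2(TPM + 0.1) scale was 4.40 ± 0.36 for the 6 Fc receptor genes (SD of the 3 library medians). It was 5.85 ± 0.13 for proximal activation, 5.59 ± 0.13 for inhibitory signalling and 5.98 ± 0.17 for phagocytic actin genes, against -0.43 ± 0.13 for all protein-coding genes. The median was -2.27 ± 0.50 for the other Fc receptors and -2.65 ± 0.18 for the receptors that use Fcer1g. In the spread test none of these pathway genes was called. Cd14, a Lipid A co-receptor among the macrophage markers, was the only gene of all lists that was, with 2.72, 4.06 and 4.17 log2 CPM in replicates 1, 2 and 3 (adjusted p = 0.0194 by edgeR). It was lowest in replicate 1, where Fcgr2b, Fcer1g, Fcgr1 and Fcgr4 were highest.

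**Figure D5:**
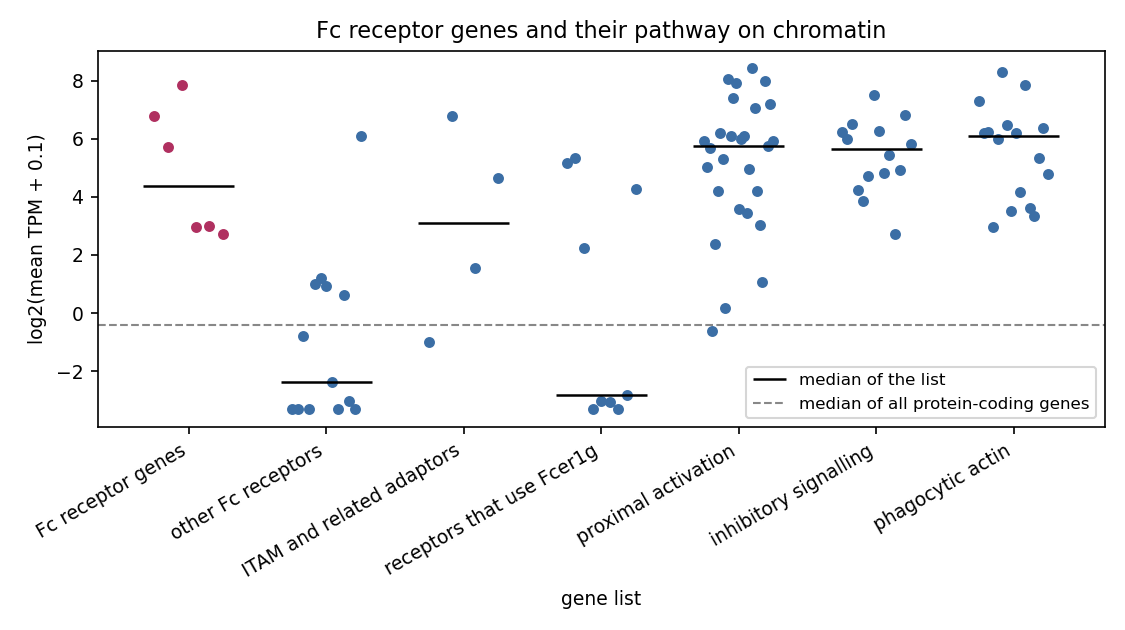
Mean level over 3 libraries, as log2(mean TPM + 0.1), of the 6 Fc receptor genes and of the genes of 6 related lists (points), with the median of each list (solid bars) and of all protein-coding genes (dashed line). Each of the 3 lists on the right has a median above that of the Fc receptor genes, and most genes of the other Fc receptor list lie below the dashed line.

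By centred log2 CPM over the 3 libraries, the genes most like the members were sought among 65 pathway genes of at least 1 TPM. Fcgr1 and Fcgr4 were closest to Fcrl1, with a root mean square difference of 0.0750 and 0.161. Fcgr3 was closest to Syk (0.00650) and Fcgrt to Card9 (0.0280). With 3 libraries these are descriptions of like profiles.

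The start regions of the receptor genes were searched in RefSeq promoters (GRCm38.p6, the 250 bases before each start, both strands) for 3 motifs named in studies of myeloid and interferon-responsive genes. GAGGAA, a core that PU.1 binds, or its reverse complement was found for Fcgr1, Fcgr3 and Fcgr4 and in 23.3% of 32851 promoters. The interferon-stimulated response element, searched as GAAA, any 2 bases and GAAA again, was found for Fcgr4 and in 2.98%. TATAAA was found for no member and in 12.4% of promoters, and none of the 3 motifs was found for Fcgr2b, Fcer1g or Fcgrt in this window. The promoter of Fcgr4 is shown, 5′ to 3′ on the strand of the gene, as the only member's that holds 2 of the motifs, with matches in capitals.

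Fcgr4 (chr1:171018676-171018925, plus strand): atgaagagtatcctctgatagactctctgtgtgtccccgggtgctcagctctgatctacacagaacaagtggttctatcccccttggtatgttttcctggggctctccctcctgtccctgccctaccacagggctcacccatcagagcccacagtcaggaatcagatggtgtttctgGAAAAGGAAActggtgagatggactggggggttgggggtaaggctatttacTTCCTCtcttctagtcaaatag

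In Fcgr4 the interferon-type match lies 73 to 64 bases before the start and the PU.1-type match 22 to 17. In Fcgr1 the PU.1-type match lies 55 to 50 bases before the start. The genes with a PU.1-type match were Fcgr1 at 52.3 ± 14.2 TPM, Fcgr4 at 7.94 ± 2.89 and Fcgr3 at 7.78 ± 0.762 (SD, n = 3). Those without one in this window were Fcgr2b at 233 ± 65.9 TPM, Fcer1g at 111 ± 25.5 and Fcgrt at 6.48 ± 1.84. A relation between match and level was not tested. A match is a description of letters in the window and shows no binding.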

How the data were processed

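Chromatin-fraction RNA of 3 BMDM libraries of 1 condition was analysed. The authors deposited, per library, a gene and a transcript table of expected counts and TPM (columns as RSEM writes them, mm10 with GENCODE M21, per the file headers and accompanying notes) and a read-based transcript table of estimated counts and TPM (columns as kallisto writes them). The sources used here do not name the aligner, the quantifiers, their versions or the strand setting. The read-based tables were summed per gene, and 86 gene identifiers absent from them were set to 0. Entries that name no gene were left out. Their share of the expected counts was 1.39%, 0.288% and 0.283% by replicate.

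The members and all gene lists were chosen with earlier results of these data known. The text names the 6 members, their nearest protein-coding neighbours, up to 4 highest members and the lowest of each list, the gene most like each member, and any list gene called in the spread test. Some of these genes are not reported here. Log values are log2(TPM + 0.1). With 1 group there is no test between conditions, so a p-value reflects the spread among these libraries alone, which may be technical, since they share a donor identifier. Differences from Fcgr2b were put to a two-sided exact test by sign flips. For spread, expected counts were rounded and fitted in edgeR 4.0.16 (R 4.3.3) with filterByExpr, TMM scaling, an intercept and trended dispersion. Deviances were set against the chi-square law, and p-values were adjusted over all genes tested (Benjamini-Hochberg). Log2 CPM used a prior count of 2. Tested on simulated counts of 14789 genes, this step recovered 43 of 195 genes changed 2-fold in 1 library and 184 of 196 changed 4-fold, with 2 false calls each. Alternatives were the read-based tables, CPM, TPM rescaled to protein-coding genes, other pseudocounts and detection thresholds, shares of expected counts, DESeq2 1.42.0 (its size factors, or its dispersion outliers as calls), testing without the filter, and leaving out each replicate in turn. Sums over coding transcripts only were added after seeing the data. Coding sequences were aligned in Biopython 1.88 with Python 3.11.15. Protein sequences were not used here. Floors cover counting error only. The deposited intervals are given per library, so neither they nor the floors cover variation between libraries.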

Additional observations from a re-analysis of the deposited data

How the results depend on the processing

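Several orders between genes turned. Fcer1g minus Fcgr2b became 1.35 over coding transcripts and 2.06 over read-based coding transcripts, and Fcgr1 minus Fcgr2b became 0.48 and 0.68 (log2), since these sums leave out the transcripts outside the 15.3% coding share of Fcgr2b. The differences of Fcgr3, Fcgr4 and Fcgrt from Fcgr2b kept their sign under all alternatives run. Between neighbours, Fcer1g minus Fcgr1 turned to -1.45 in CPM, Fcgr4 minus Fcgr3 became 2.09 and 0.94 over coding and read-based coding transcripts, and Fcgr3 minus Fcgrt became -0.37 in read-based TPM, -0.82 over coding and 1.27 over read-based coding transcripts. The order of the Fcgr2b forms with and without the 141-nt exon turned in replicates 2 and 3 of the read-based tables.

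Mean TPM moved by more than the SD between libraries in these cases. In the read-based tables Fcgr1 was at 90.9, Fcgr3 at 13.0, Fcgr4 at 13.1, Fcer1g at 184 and Fcgrt at 16.6 TPM. Rescaling TPM to protein-coding genes gave 177 for Fcgr1, 787 for Fcgr2b, 26.4 for Fcgr3, 26.8 for Fcgr4, 376 for Fcer1g and 22.1 for Fcgrt. Unscaled CPM gave 108 for Fcgr1 and 39.6 for Fcer1g. Coding transcripts gave 36.1 TPM for Fcgr2b, 2.11 for Fcgr3 and 3.25 for Fcgrt, and read-based coding transcripts 33.1, 6.48 and 2.58, with 13.1 for Fcgr4.

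By expected counts, retained-intron shares were 59.9% for Fcgr2b, 6.86% for Fcer1g and 25.6% for Fcgrt, against 56.6%, 27.3% and 84.3% by read-based TPM, which also gave 49.9% for Fcgr3. The Fcgr2b-206 share was 15.4% by counts and 28.6% by read-based TPM, and the Fcgr1 decay share 0.871% and 42.3%. These pairs differ in both unit and table set. Within 1 unit, alignment-based then read-based, the Fcgr2b-206 share was 33.8% and 28.6% of TPM and 15.4% and 13.6% of counts. The Fcgr1 decay share was likewise 5.36% and 42.3% of TPM and 0.871% and 10.9% of counts. In read-based counts retained-intron shares were 56.9% for Fcgr2b, 57.4% for Fcgr3, 12.1% for Fcer1g and 79.5% for Fcgrt. The cause of these gaps was not tested.

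Genes called for spread numbered 166 of 14789 tested in the main setting and 273 of 23769 in the read-based tables. Without the filter they numbered 221 of 24516, and as DESeq2 outliers 61 of 14789. With replicates 1, 2 and 3 left out in turn, 56 of 15101, 76 of 14675 and 58 of 14901 were called. No member was called in any of these settings. Other Fc receptors detected numbered 1 at a TPM of 5, 5 in the read-based tables, and 3 to 5 with each replicate left out. Depth limits Fcgr3, Fcgr4 and Fcgrt most, at 58 to 153 expected counts per library. Differences between genes were taken within each library, but no pairing of libraries between conditions was possible because the libraries form 1 group.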
